A study of Mus musculus with 15 samples.

Results

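The genes examined here encode 9 apolipoproteins of the hepatocyte (Apoa1, Apoa2, Apoa4, Apoa5, Apob, Apoc1, Apoc3, Apoe and Apom) and the transfer protein that loads lipid onto apolipoprotein B (Mttp). They were taken by symbol from a table of counts for 55984 genes, in which all 10 were present and all 10 passed the filter on low counts. Hepatocytes of wild-type adult male C57BL/6JJcl mice were stained with the DNA dye Hoechst and sorted into diploid cells (2n-whole), all tetraploid cells (4n-whole), and tetraploid cells with a low or a high Hoechst peak (4n-bottom and 4n-top). RNA sequencing counts are from 4 mice for 2n-whole, 4n-whole and 4n-bottom and from 3 mice (mice 2, 3 and 4) for 4n-top, giving 15 libraries. The authors left out the 4n-top sample numbered 1 because its RNA was of poor quality. The design asks whether hepatocytes of the same DNA content differ when they have 1 nucleus or 2. The 4n-bottom gate enriches binucleated cells and the 4n-top gate enriches mononucleated cells, but the latter was sorted in a single round and still holds many binucleated cells, which limits it as a model of the mononucleated state.

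The liver exports fat as very low density lipoproteins. Each such particle is built in the endoplasmic reticulum around a single molecule of apolipoprotein B, onto which the Mttp protein transfers triglyceride. The small exchangeable apolipoproteins sit on the surface of lipoproteins and steer their fate in the blood, since A-I and A-II are the main proteins of high density lipoproteins, C-III slows the clearance of triglyceride, A-V speeds it, and E is the ligand that returns remnants to the liver.

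Of the 10 genes, 6 lie in clusters with other genes of the set on chromosomes 9 and 7, and 4 lie elsewhere. On the GRCm39 build, a stretch of 43340 bases of chromosome 9 (from 46139878 to 46183217) holds Apoa1, Apoc3, Apoa4 and Apoa5. A stretch of 29444 bases of chromosome 7 (from 19405504 to 19434947) holds Apoc2, Apoc4, Apoc1 and Apoe. The annotated transcripts of Apob occupy chromosome 12 from 8027648 to 8066835, and those of Mttp chromosome 3 from 137795612 to 137850729. Apoa2 is on chromosome 1 (171049125 to 171053948) and Apom on chromosome 17 (35347973 to 35351026).

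The promoter windows of 3 genes are shown because the results turn on 2 of these genes (Apoa4 and Apob) and on a neighbour of the first that did not move with it (Apoa1). They are RefSeq sequences (table build GRCm38.p6, with entries for 8 of the 10 genes), run from 250 bases before the start of the transcript to 50 bases after it, and were found unchanged in GRCm39, all on the plus strand, at chr9:46151892-46152191 (Apoa4), chr9:46139678-46139977 (Apoa1) and chr12:8027427-8027726 (Apob). Capitals mark the motifs TATAAA (the TATA box) and CAAAGNNCA (a core bound by the hepatocyte nuclear factor HNF4), searched on both strands; the matches did not overlap.
Apoa4: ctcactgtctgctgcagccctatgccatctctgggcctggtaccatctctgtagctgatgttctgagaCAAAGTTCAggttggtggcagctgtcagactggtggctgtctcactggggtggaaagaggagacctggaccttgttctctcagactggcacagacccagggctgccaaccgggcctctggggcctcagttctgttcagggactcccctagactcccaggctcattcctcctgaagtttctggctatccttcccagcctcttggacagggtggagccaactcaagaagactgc
Apoa1: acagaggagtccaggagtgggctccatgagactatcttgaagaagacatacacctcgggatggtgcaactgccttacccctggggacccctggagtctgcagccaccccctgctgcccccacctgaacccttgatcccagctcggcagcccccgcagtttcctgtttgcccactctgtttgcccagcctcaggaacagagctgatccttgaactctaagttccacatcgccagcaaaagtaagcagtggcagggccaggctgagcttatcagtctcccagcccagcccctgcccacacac
Apob: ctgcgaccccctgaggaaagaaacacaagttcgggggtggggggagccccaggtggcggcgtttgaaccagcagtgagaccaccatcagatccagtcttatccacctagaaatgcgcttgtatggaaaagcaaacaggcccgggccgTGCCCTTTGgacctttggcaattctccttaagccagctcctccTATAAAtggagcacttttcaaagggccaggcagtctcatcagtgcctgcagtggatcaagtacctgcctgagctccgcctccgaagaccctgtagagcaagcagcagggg
In the Apoa4 window the HNF4 motif began 182 bases before the start, on the strand of the gene, and TATAAA did not occur. The Apob window held TATAAA from 60 bases before the start and the HNF4 motif, on the opposite strand, from 103 bases before it. Neither string of letters occurred in the Apoa1 window, which does not show that HNF4 has no site there. These distances are from the start of the RefSeq entry. The annotated genes begin before it, at 46151994 (Apoa4) and 8027648 (Apob), so the motifs lie closer to those starts. Of 32851 promoter windows of this length in the table, 13.6% held TATAAA and 6.36% held CAAAGNNCA. The HNF4 letters were chosen after the sequences were seen.

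The libraries had total counts from 22049498 to 42096421, and the 10 genes together made up 3.78% to 4.94% of them, with single counts from 466 (Apoa4) to 775773 (Apoe) per library. Before normalization, this share was 3.78% to 4.21% in 2n-whole and 4.24% to 4.94% in 4n-whole. It was 3.88% to 4.81% in 4n-bottom and 4.70% to 4.83% in 4n-top. Levels are given below as CPM, counts scaled to the library size that edgeR's normalization gives. They are relative to the RNA counted in a library, and RNA per cell was not measured. The normalization factors were 0.891 to 0.965 in 2n-whole and 0.992 to 1.13 in 4n-whole. Of 9 markers of hepatocytes in the list, 8 were among the counted genes, and Tf was not found under that symbol. The 8 markers had summed levels between 67396 and 94434 CPM. Markers of other cells were low. In 2n-whole the summed level was 14.7 to 22.4 CPM for 10 endothelial genes, 0.666 to 9.31 for 10 Kupffer cell genes, 3.92 to 7.30 for 10 stellate cell genes, 35.2 to 47.8 for 7 cholangiocyte genes and 0.522 to 2.24 for 8 blood cell genes. The sums in 4n-whole, in the same order, were 4.84 to 25.9, 1.33 to 2.89, 2.81 to 4.02, 16.6 to 31.2 and 0.0533 to 0.569 CPM, with the Kupffer cell markers Vsig4 and Timd4 and the cholangiocyte marker Krt7 at 0 in all 4n-whole libraries. The cholangiocyte sums of 4n-whole were thus all under those of 2n-whole. The part of other cells in the results was not tested beyond the covariate given below, which holds Kupffer, endothelial and stellate cell markers only. Diploid cells were also spun down after sorting at a higher force than tetraploid cells, and this step and the ploidy cannot be told apart.

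The 10 genes differed widely in level. Per kilobase of the canonical transcript, and averaged over the 4 populations, Apoe stood first with 7741 CPM, followed by Apoa1 with 5338, Apoa2 with 4583, Apoc1 with 1933 and Apob with 899.6. Apoc3 (300.9), Apoa5 (167.7), Apom (131.3), Mttp (87.3) and Apoa4 (19.2) had lower levels per kilobase. With the union of all annotated exons as the length, the order of the upper 5 genes was Apoa1, Apoe, Apoc1, Apob and Apoa2, and that of the lower 5 genes was the same. Thus Apoa4 had the lowest level of the set per length by these counts. Genes on the opposite strand overlap Apoa4 and some of the other genes, and the strand setting of the counting is not known. Their levels may therefore be too low. Apoa4 was also the gene whose level differed most between populations: the ratio of its highest to its lowest population mean was 2.67, against 1.05 (Mttp) to 1.32 (Apob) for the other genes.

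Apoa4 fell in tetraploid hepatocytes. Apolipoprotein A-IV is carried on chylomicrons and high density lipoproteins, and its hepatic transcript is known to follow the nutritional state. In 2n-whole it was measured at 50.4, 50.2, 42.0 and 83.8 CPM in mice 1 to 4, and in 4n-whole at 19.8, 18.7, 20.6 and 25.8 CPM. The 4n-bottom libraries gave 28.8, 33.5, 27.0 and 50.4 CPM in mice 1 to 4, and the 4n-top libraries 29.8, 19.0 and 31.6 CPM in mice 2 to 4. All 4n-whole and 4n-top libraries were below all 2n-whole libraries, whereas the 4n-bottom library of mouse 4, the mouse with the highest Apoa4 in 2n-whole and 4n-whole, reached the range of 2n-whole.

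Between 4n-whole and 2n-whole, the log2 fold change of Apoa4 was -1.37 ± 0.12 (SE, edgeR adjusted p = 7.05e-08), a level that fell by 61.3%, and it was lower in 4 of 4 mice. In 4n-bottom the decrease was smaller, at -0.69 ± 0.12 (edgeR adjusted p = 0.00309, lower in 4 of 4 mice), and in 4n-top it was -1.10 ± 0.14 (edgeR adjusted p = 1.42e-05, lower in 3 of 3 mice). The 3 comparisons share the 2n-whole libraries, so they are not independent of each other. Without the mouse as a block in the model, the decrease in 4n-whole passed (edgeR adjusted p = 0.0117), and those in 4n-bottom (adjusted p = 0.870) and 4n-top (adjusted p = 0.126) did not. Over the 12 alternatives the adjusted p reached at most 0.180, 0.870 and 0.448 in these 3 comparisons.

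The order of the population means of Apoa4 was 2n-whole, 4n-bottom, 4n-top and 4n-whole. Only the step from 2n-whole to 4n-bottom passed the test, and the neighbours 4n-bottom and 4n-top (adjusted p = 1) and 4n-top and 4n-whole (adjusted p = 0.984) did not. The 4n-whole mean of 21.2 ± 3.1 CPM (SD, n = 4) lay below both 4n-bottom (34.9 ± 10.7, n = 4) and 4n-top (26.8 ± 6.9, n = 3), the 2 gates that divide the tetraploid cells. The difference between 4n-whole and 4n-bottom was -0.68 ± 0.12 (lower in 4 of 4 mice, ranges not overlapping, as for 1.64% of all genes) and just missed the threshold (edgeR adjusted p = 0.0527). It passed under 6 of 12 alternatives, among them DESeq2 with the mouse as a block (adjusted p = 0.00029) and the models without mouse 2 (0.0161) or mouse 3 (0.0039), with adjusted p from 0.000104 to 1 over all 12.

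**Figure D1:**
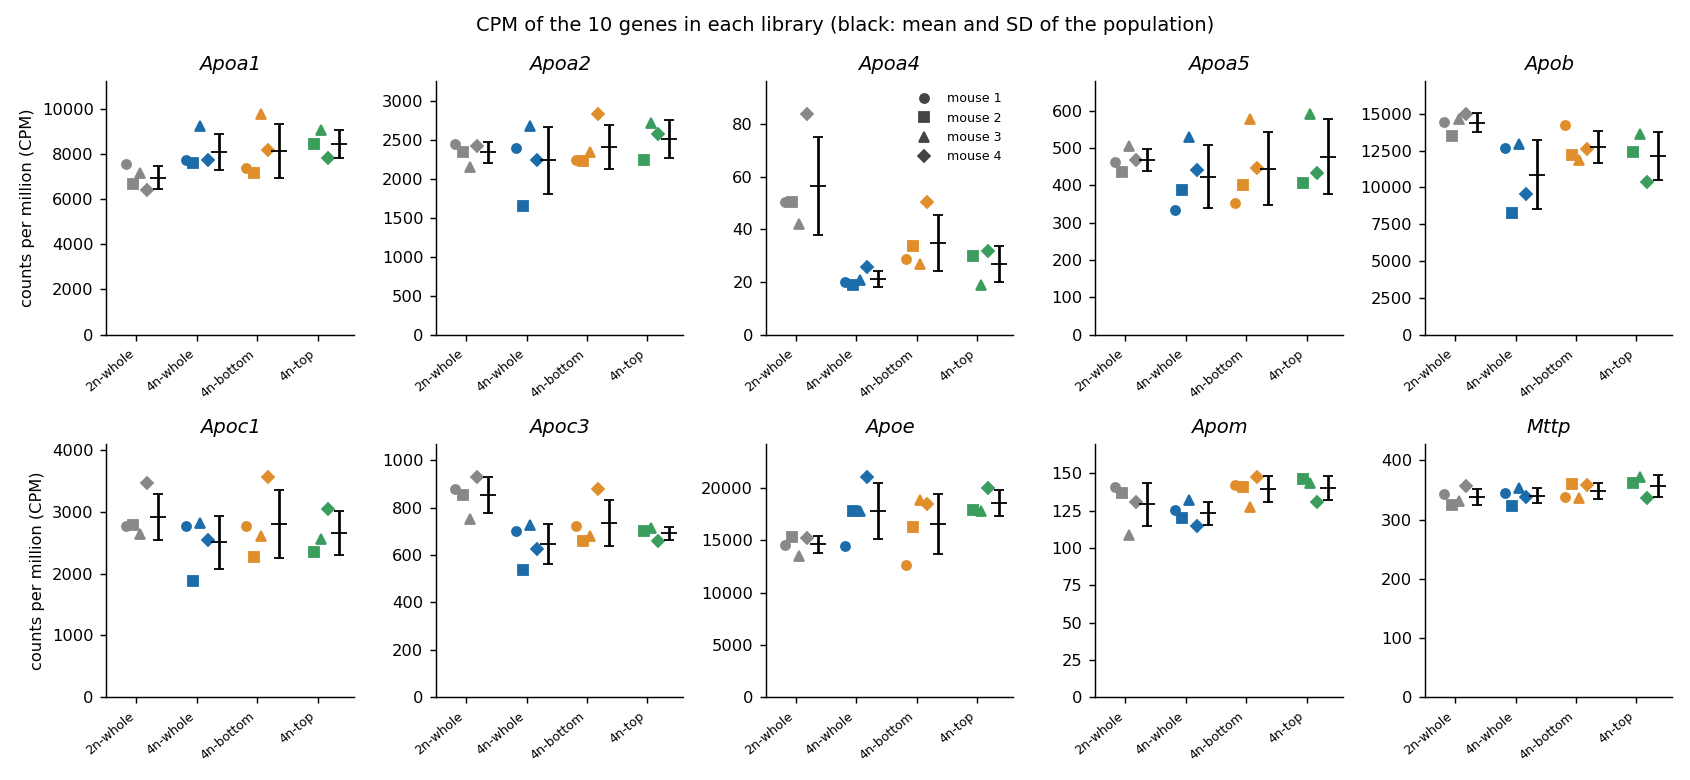
CPM of each of the 10 genes by population, with 1 point per library, a shape for each mouse, and the mean and SD of the population in black; each axis starts at 0. Apoa4 sits between 18.7 and 25.8 CPM in 4n-whole and between 42.0 and 83.8 CPM in 2n-whole, and the other 9 genes show smaller shifts.

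For the 10 genes as a group, 4n-whole against 2n-whole gave 1 call at an adjusted p below 0.05 and an absolute log2 fold change above 0.5, against 3.47% of the 17488 genes tested. At the adjusted p alone, 4 of 10 genes passed (5.47% of all genes tested), namely 3 that were lower (2.54% of all genes) and 1 that was higher (2.93% of all genes). For 4 genes the ranges of the 2 populations did not overlap (5.80% of all genes): Apoa4, Apob and Apoc3 were lower and Apoa1 was higher in every 4n-whole library. The median log2 fold change of the 10 genes was -0.12, beside -0.01 over all genes tested, and the median of its absolute value was 0.22, beside 0.30.

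Apob, which encodes the structural protein of very low density lipoproteins, was lower in 4n-whole than in 2n-whole at the adjusted p alone. It was measured at 14448, 13483, 14664 and 14984 CPM in the 2n-whole libraries of mice 1 to 4 and at 12707, 8256, 12984 and 9551 CPM in 4n-whole. In 4n-bottom it gave 14269, 12232, 11846 and 12605 CPM, and in 4n-top 12397, 13644 and 10359 CPM in mice 2 to 4. The 4n-whole values fell into a pair just under the 2n-whole range (mice 1 and 3) and a pair far below it (mice 2 and 4), while 4n-bottom and 4n-top each had 1 library inside that range.

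The log2 fold change of Apob between 4n-whole and 2n-whole was -0.42 ± 0.09 (SE, edgeR adjusted p = 0.0063, lower in 4 of 4 mice), under the fold threshold. This call was lost without mouse 4 (adjusted p = 0.0505), without the block (0.276), with a covariate for other cells (0.0743) and with one for lobular position (0.346, the highest of 12 alternatives). In 4n-bottom (-0.18 ± 0.09, adjusted p = 0.523) and 4n-top (-0.21 ± 0.10, adjusted p = 0.446) the difference from 2n-whole did not pass, although the value was lower in 4 of 4 and 3 of 3 mice.

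Mttp, the partner of apolipoprotein B in particle assembly, had the smallest ratio between population means of the set. Its level was 325.0 to 355.9 CPM in the 2n-whole libraries, 323.7 to 354.1 in 4n-whole, 336.3 to 360.7 in 4n-bottom and 336.7 to 372.3 in 4n-top. The ranges of all populations overlapped, and the log2 fold change between 4n-whole and 2n-whole was 0.01 ± 0.08, with a 95% confidence interval from -0.16 to 0.17. The intervals for 4n-bottom (-0.12 to 0.21) and 4n-top (-0.11 to 0.26) against 2n-whole also contained 0.

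Of the genes that act on triglyceride clearance, Apoc3 was lower in 4n-whole than in 2n-whole at the adjusted p alone. Apoa5 did not pass in any comparison. Apoc3 was measured at 879.4, 855.2, 751.0 and 930.6 CPM in 2n-whole and at 700.0, 536.6, 728.0 and 626.4 CPM in 4n-whole (mice 1 to 4). The 4n-bottom libraries lay between 659.5 and 877.3 CPM and the 4n-top libraries between 659.2 and 712.5 CPM. The 4n-whole and 4n-top libraries lay below the 2n-whole range, and 1 library of 4n-bottom (mouse 4) lay within it.

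For Apoc3 the log2 fold change between 4n-whole and 2n-whole was -0.40 ± 0.10 (edgeR adjusted p = 0.0134, lower in 4 of 4 mice). The call was lost without mouse 2 (adjusted p = 0.0764), without mouse 4 (0.118), without the block (0.236), with the libraries of the 2 populations only (0.0689) and with the covariate for lobular position (0.474, the highest of 12 alternatives). Against 2n-whole, 4n-top gave -0.28 ± 0.11 (adjusted p = 0.271) and 4n-bottom -0.22 ± 0.10 (adjusted p = 0.423). Apoa5 was at 436.1 to 505.2 CPM in 2n-whole and 335.0 to 530.2 CPM in 4n-whole, overlapping, and its log2 fold change was -0.17 ± 0.09 (lower in 3 of 4 mice, adjusted p = 0.303). Apoc1, a small apolipoprotein that restrains the uptake of remnants, was at 2649 to 3468 CPM in 2n-whole and 1887 to 2817 CPM in 4n-whole, also overlapping, and its log2 fold change was -0.22 ± 0.09 (lower in 3 of 4 mice, adjusted p = 0.159).

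Apoe was higher in 4n-whole than in 2n-whole at the adjusted p alone, and Apoa1 did not pass in any comparison. Apoe was measured at 14551, 15277, 13493 and 15179 CPM in 2n-whole and at 14473, 17821, 17784 and 21075 CPM in 4n-whole (mice 1 to 4). The 4n-bottom libraries gave 12656, 16229, 18836 and 18474 CPM, and the 4n-top libraries 17909, 17842 and 19963 CPM in mice 2 to 4. Mouse 1 showed no higher Apoe in either tetraploid population, and mice 2, 3 and 4 were higher in all of them.

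The log2 fold change of Apoe between 4n-whole and 2n-whole was 0.27 ± 0.08 and was close to the threshold (edgeR adjusted p = 0.0494, higher in 3 of 4 mice). It lost its call under 8 of 12 alternatives (adjusted p up to 0.595), including the models without mouse 2 (adjusted p = 0.0682), mouse 3 (0.106) or mouse 4 (0.385). Macrophages also express Apoe, and the Kupffer cell markers summed to no more than 9.31 CPM in any library. With the covariate for markers of other cells the log2 fold change was 0.11 (edgeR adjusted p = 0.458).

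Apoa1 was measured at 7576, 6663, 7172 and 6435 CPM in 2n-whole and at 7752, 7596, 9278 and 7766 CPM in 4n-whole (mice 1 to 4). Its level lay between 7177 and 9786 CPM in 4n-bottom and between 7849 and 9092 CPM in 4n-top. The 4n-whole and 2n-whole ranges did not overlap, although their nearest values were 7596 and 7576 CPM. The log2 fold change of 0.21 ± 0.08 (higher in 4 of 4 mice) did not pass (edgeR adjusted p = 0.0967), nor did that of 4n-top (0.27 ± 0.08, adjusted p = 0.137, higher in 3 of 3 mice) or of 4n-bottom (0.22 ± 0.08, adjusted p = 0.292, higher in 3 of 4 mice).

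The 2 remaining genes of high density lipoproteins did not pass in any of the 6 comparisons. For Apoa2, 4n-whole differed from 2n-whole by -0.08 ± 0.10 on the log2 scale (95% confidence interval from -0.28 to 0.12). Apom, which carries sphingosine 1-phosphate, differed by -0.07 ± 0.09 (from -0.26 to 0.13). Their 4n-whole libraries ranged from 1649 to 2672 CPM and from 114.4 to 132.2 CPM and overlapped those of 2n-whole (2144 to 2449 and 108.4 to 140.7 CPM).

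**Figure D2:**
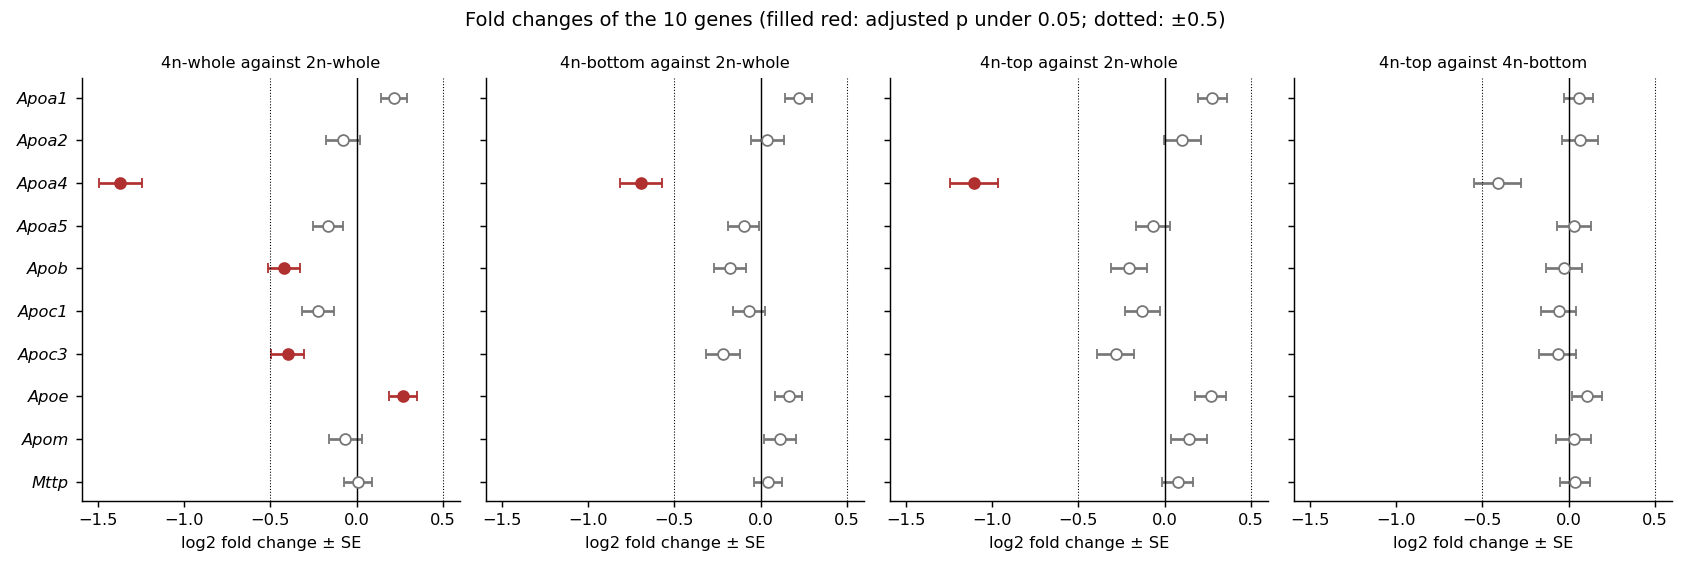
Log2 fold change and SE (edgeR) of the 10 genes in 4 comparisons; filled red points have an adjusted p below 0.05, and dotted lines mark ±0.5. Apoa4 lies left of -0.5 in all 3 comparisons with 2n-whole, Apob, Apoc3 and Apoe pass on the adjusted p in 4n-whole only, and no gene passes between 4n-top and 4n-bottom.

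Among the 10 genes, Apoa4 was the only one called in 4n-bottom against 2n-whole (0.463% of all genes tested were called) and in 4n-top against 2n-whole (0.961%). In 4n-top against 2n-whole the ranges of 4 genes did not overlap, with Apoa4 and Apoc3 lower and Apoa1 and Apoe higher, beside 9.21% of all genes tested.

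4n-top against 4n-bottom, the comparison that addresses the number of nuclei at equal DNA content, gave 0 calls among the 10 genes by edgeR, beside 0.0114% of all genes tested. One gene, Apoa4, had an unadjusted p below 0.05. Its log2 fold change was -0.41 ± 0.14 (95% confidence interval from -0.69 to -0.13, edgeR adjusted p = 1, lower in 3 of 3 mice), and its ranges overlapped. DESeq2 with the mouse as a block also called 0 of the 10 genes. For the other 9 genes the log2 fold changes lay between -0.07 (Apoc3) and 0.11 (Apoe), and the 95% confidence intervals between -0.28 and 0.29, so that differences larger than these bounds were outside the intervals. 4n-whole against 4n-bottom gave 0 calls among the 10 genes (0.00572% of all genes, with 2 of the 10 at an unadjusted p below 0.05), and 4n-whole against 4n-top gave 0 as well (0% of all genes, with 1 of the 10). DESeq2 with the block called 1 (Apoa4) and 0, respectively.

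Apoa4 lies between Apoc3 and Apoa5 in the cluster on chromosome 9, so its level was also taken relative to its neighbours within each library, which needs no scaling between libraries. The counts of Apoa4 were 3.46%, 3.71%, 3.01% and 5.95% of the geometric mean of Apoa1, Apoc3 and Apoa5 in the 2n-whole libraries of mice 1 to 4, and 1.63%, 1.60%, 1.35% and 2.00% in 4n-whole. In 4n-bottom they were 2.33%, 2.71%, 1.72% and 3.41%, and in 4n-top 2.22%, 1.21% and 2.42% in mice 2 to 4. Every 4n-whole library lay below every 2n-whole library.

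The log2 ratio was -5.94 ± 0.23 (SD, n = 4) in 4n-whole and -4.68 ± 0.43 (n = 4) in 2n-whole, a difference of -1.26. The ratio was taken with the decrease of Apoa4 already known, so it is given as a description, with no test. The cluster did not move as a unit in 4n-whole, since the log2 fold change was -1.37 for Apoa4, -0.40 for Apoc3, -0.17 for Apoa5 and 0.21 for Apoa1. Genes annotated on the opposite strand across Apoa4 had at most 2 counts in any library. The strand setting of the counting is not known, so reads shared with these genes may not have been counted for either.

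**Figure D3:**
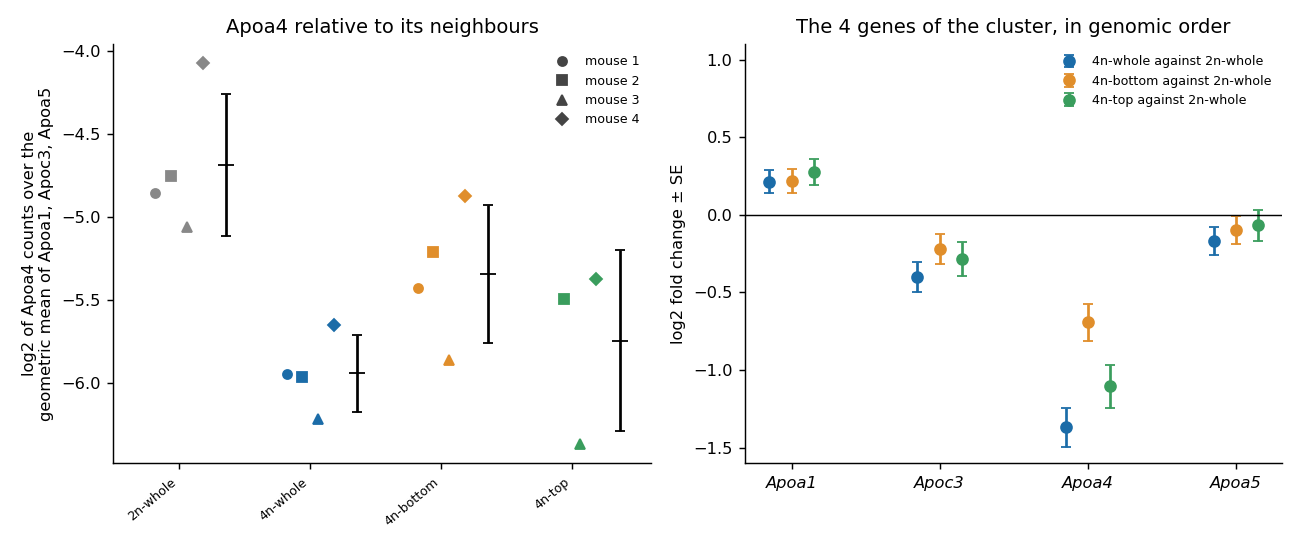
Left, log2 ratio of Apoa4 counts to the geometric mean of Apoa1, Apoc3 and Apoa5 in each library, with the mean and SD in black; right, log2 fold change and SE (edgeR) against 2n-whole of the 4 genes in their order along the chromosome. The ratio is between -6.21 and -5.65 in 4n-whole and between -5.06 and -4.07 in 2n-whole, and only Apoa4 falls below -0.5 on the right.

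In the cluster on chromosome 7, Apoe and Apoc1 had fold changes of opposite sign in 4n-whole (0.27 and -0.22 on the log2 scale). Apoc4, their neighbour, had 113.1 ± 4.3 CPM (SD, n = 4) in 2n-whole and a log2 fold change of 0.03 ± 0.09. Apoc2 encodes the cofactor of lipoprotein lipase, and its counts of 3 to 47 per library are uncertain. The annotated gene Apoc2l, at 0 counts in all libraries, covers Apoc2 on the same strand, and reads shared by both may not have been counted. Apoc2l also covers most of Apoc4 on that strand, so the counts of Apoc4 (2419 to 5123 per library) may be too low as well.

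Over the 15 libraries, with the mouse effect removed, the genes whose log2 CPM was most like that of Apoa4 among 7371 genes were Itih5, Mup20, Ugt2b38, Slc41a2 and Abhd2 (Pearson r from 0.964 to 0.977). Mup20, a urinary pheromone carrier, had 1945 ± 166 CPM in 2n-whole and 935.3 ± 136.2 CPM in 4n-whole. Mup20 and Ugt2b38 belong to families of near-identical genes, so their counts are uncertain. The most opposite were Igfbp1, Acaa1b, Aox1, Cyp27a1 and Dgat2 (r from -0.962 to -0.953). Dgat2, which makes the triglyceride that is packed into lipoproteins, had 231.4 ± 33.7 CPM in 2n-whole and 293.7 ± 42.3 CPM in 4n-whole. Within the set, r with Apoa4 was 0.871 for Apoc3 and 0.820 for Apob, against -0.618 for Apoa1 and -0.727 for Apoe, with Mttp at -0.01. These coefficients describe 15 libraries that share 4 populations, and the difference between 2n-whole and the tetraploid populations contributes to each of them.

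Genes that mark the position of a hepatocyte in the lobule differed in these comparisons, and position itself was not measured. All 12 genes of a list of pericentral genes were higher in 4n-whole than in 2n-whole (12 called), with a median log2 fold change of 1.60, and 8 of 12 were called higher in each of 4n-bottom and 4n-top. Cyp1a2 (1.65 ± 0.15), Cyp2a5 (1.60 ± 0.15) and Gulo (1.57 ± 0.16) had the smallest p; Cyp2a5 has close paralogs. In 4n-bottom these were Slc1a2 (1.92 ± 0.19), Glul (1.43 ± 0.15) and Slc13a3 (2.96 ± 0.37), and in 4n-top Cyp1a2 (1.58 ± 0.16), Cyp2a5 (1.32 ± 0.16) and Cyp2e1 (1.63 ± 0.20). Of 11 periportal genes tested, Cyp2f2 (-0.73 ± 0.11) and Hsd17b13 (-0.61 ± 0.10) were called lower in 4n-whole, Sult5a1 (-0.81 ± 0.19) was called lower in 4n-top, and 0 were called higher by edgeR. Against 2n-whole, the median log2 fold change of the periportal genes was -0.24 in 4n-whole, -0.007 in 4n-bottom and -0.18 in 4n-top. Between 4n-top and 4n-bottom, Glul, which marks the cells around the central vein, was lower (-0.90 ± 0.16, edgeR adjusted p = 0.0499). The rest of the pericentral list went both ways in this comparison and did not pass. Slc1a2 was lower (-1.08 ± 0.20), Rgn (0.86 ± 0.20) and Cyp2e1 (0.72 ± 0.20) were higher, and the median of the list was 0.15.

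The pericentral level and Apoa4 were also set side by side within each mouse. In 4n-whole of mouse 2 the summed level of the pericentral genes was 1.55 times that of 2n-whole of the same mouse and Apoa4 was at 0.372 of it. In mouse 1 the pericentral sum was 4.94 times higher and Apoa4 was at 0.394, in mouse 3 it was 3.35 times higher with Apoa4 at 0.491, and in mouse 4 it was 3.54 times higher with Apoa4 at 0.307. In 4n-top the pericentral sum was 1.55, 3.86 and 3.33 times that of 2n-whole in mice 2, 3 and 4, with Apoa4 at 0.593, 0.452 and 0.377. Mouse 2 thus had the smallest pericentral shift and the smallest fall of Apoa4 in 4n-top. In 4n-whole it also had the smallest shift, but not the smallest fall. In 4n-bottom the pericentral sums were 1.51 to 2.49 times higher, with Apoa4 at 0.571 to 0.667 in the 4 mice. With the difference of pericentral and periportal levels as a covariate, the log2 fold change of Apoa4 in 4n-whole was -1.11 ± 0.31 (edgeR adjusted p = 0.180), and the same model called 2 of all genes tested, against 607 without it. The covariate did not overlap between the 2n-whole and 4n-whole libraries (from -5.53 to -4.68 and from -4.58 to -2.61), so that ploidy and lobular position cannot be told apart by this model.

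Markers of bile duct cells also move with ploidy: Spp1 had 9.61 ± 2.52 CPM in 2n-whole and 1.35 ± 0.13 CPM in 4n-whole, and Sox9 was also called lower (-0.62 ± 0.12). The covariate for markers of other cells was the mean level of Kupffer, endothelial and stellate cell markers and held no cholangiocyte marker. With this covariate, the log2 fold change of Apoa4 in 4n-whole was -1.35 (edgeR adjusted p = 7.5e-06). The part of bile duct cells was not tested. In bulk RNA, fewer cells that express a gene, less RNA of it per cell and more RNA of all genes per cell cannot be told apart.

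**Figure D4:**
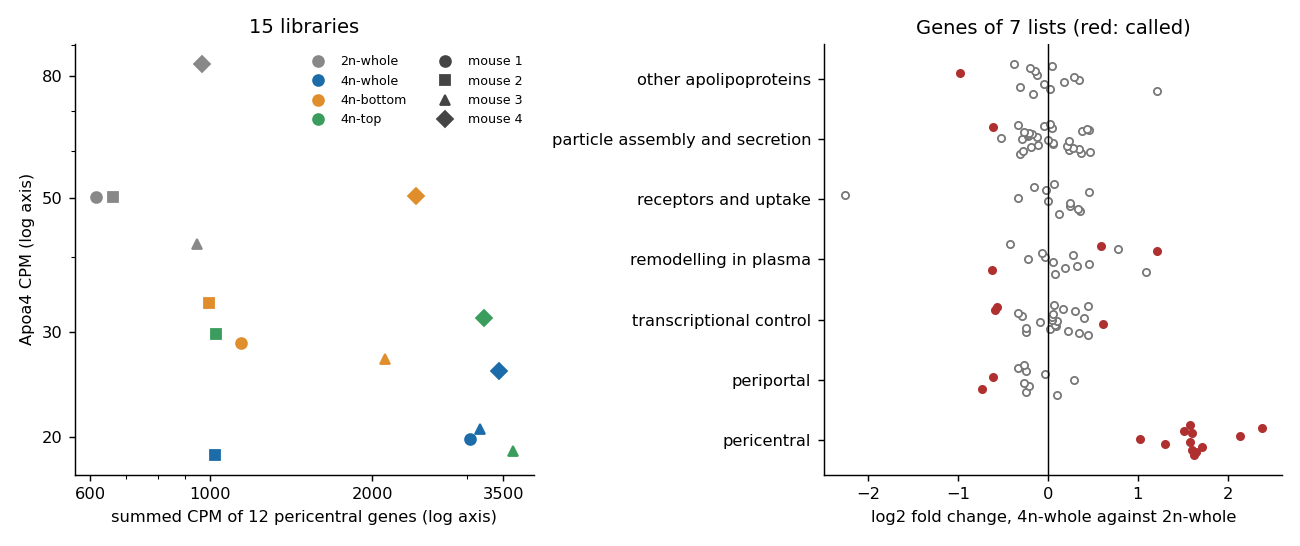
Left, Apoa4 CPM against the summed CPM of 12 pericentral genes in the 15 libraries (both axes logarithmic; color, population; shape, mouse); right, log2 fold change of each tested gene of 7 lists in 4n-whole against 2n-whole, with called genes in red. The libraries of mouse 2 have pericentral sums of 1024 CPM in 4n-whole, 997.5 in 4n-bottom and 1027 in 4n-top, with Apoa4 at 18.7, 33.5 and 29.8 CPM, and the 12 pericentral genes all lie above 1.

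The genes that surround the set in lipoprotein metabolism were taken from 5 lists with 97 genes, of which 94 were tested. In 4n-whole against 2n-whole, 8 were called (8.51%, beside 3.47% of all genes), 3 higher and 5 lower. In 4n-top against 2n-whole 3 were called, all higher, and in the other 4 comparisons 0 were called by edgeR.

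Of 14 other apolipoproteins and relatives tested, 1 was called in 4n-whole, and their median log2 fold change was -0.08. This was Apoo, a protein of the mitochondrial contact sites, which fell from 14.1 ± 1.8 to 7.51 ± 3.81 CPM (log2 fold change -0.97 ± 0.23, adjusted p = 0.013). Among the others, Apof had 442.9 ± 41.6 CPM in 2n-whole and 358.1 ± 52.0 CPM in 4n-whole (adjusted p = 0.0672), and Apoh had 529.4 ± 87.4 and 516.9 ± 113.5 CPM (adjusted p = 0.834).

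Of 30 genes of particle assembly and secretion, 1 was called lower in 4n-whole. Tm6sf2, which promotes the loading of lipid onto nascent particles, fell from 20.9 ± 2.3 to 13.6 ± 1.7 CPM (-0.61 ± 0.14, edgeR adjusted p = 0.0106). At the adjusted p alone 4 were higher, namely the carboxylesterases Ces1g (0.46 ± 0.09) and Ces1d (0.36 ± 0.08), which have close paralogs, and the acyltransferases Dgat2 (0.35 ± 0.08) and Soat2 (0.46 ± 0.13), under the fold threshold. In 4n-top Ces1g was called (0.60 ± 0.10, adjusted p = 0.000314). The genes of COPII transport out of the endoplasmic reticulum did not pass, and the median of the list was -0.03.

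Of 12 genes of receptors and uptake, 0 were called in 4n-whole by edgeR, with 3 higher and 1 lower at the adjusted p alone. In 4n-top 1 was called higher. The median log2 fold change of the list in 4n-whole was 0.09.

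Of 15 genes that remodel lipoproteins in plasma, 2 were called higher and 1 lower in 4n-whole. Pon1, the paraoxonase of high density lipoproteins, rose from 130.7 ± 34.0 to 199.0 ± 62.1 CPM (0.59 ± 0.13, edgeR adjusted p = 0.00766) and was also called in 4n-top (0.76 ± 0.14, adjusted p = 0.00236). Lpl, the lipoprotein lipase, which adult hepatocytes express little, rose from 2.01 ± 1.26 to 4.52 ± 2.16 CPM (1.21 ± 0.29, adjusted p = 0.0131).

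Of 23 genes of transcriptional control, Mlxipl, the carbohydrate response factor, was called higher in 4n-whole (0.62 ± 0.11, edgeR adjusted p = 0.000816). Rora (-0.56 ± 0.10, adjusted p = 0.00142) and Ppargc1a (-0.59 ± 0.13, adjusted p = 0.00682) were called lower. Creb3l3, a factor of the endoplasmic reticulum known to drive Apoa4 in the liver, was higher by 0.35 ± 0.10 (adjusted p = 0.0299), and Hnf4a differed by 0.08 ± 0.08 on the log2 scale (adjusted p = 0.662). Without the block 0 of the 8 calls in 4n-whole and 0 of the 3 in 4n-top were left.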

How the data were processed

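RNA-seq libraries were prepared from 20 ng of total RNA of sorted mouse hepatocytes with a stranded kit. Per the labels and the methods, the authors aligned reads to GRCm39 with STAR 2.7.11a and counted them with featureCounts, and deposited raw counts per gene symbol for 15 libraries, without normalization. The annotation, the strand setting and the handling of read pairs are not given in the sources used here. Among counts of 1 to 10, between 74.2% and 81.4% per library were even. Where both mates were counted, the number of fragments is smaller than the count.

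The 10 genes and the lists were chosen with earlier results of these data known. All were measured as counts and none was left out. Counts were tested with edgeR 4.0.16 (R 4.3.3): TMM normalization, filterByExpr (counts of at least 10, totals of at least 15), a model of all 15 libraries with population and, as replicate block, mouse, its quasi-likelihood F test, and Benjamini-Hochberg adjustment over 17488 genes. Genes were called at an adjusted p below 0.05 and an absolute log2 fold change above 0.5. The pairing comes from the subject numbers in the labels; residuals of libraries of the same mouse correlated by 0.158 on average (21 pairs, 0.0845 to 0.227). The main edgeR fit was tested on simulated data for 4n-whole against 2n-whole only, and the other comparisons and the alternatives were not. Total counts set the precision, and intervals cover the spread between libraries. Positions are from GENCODE M39. Likeness to Apoa4 used log2 CPM with a prior count of 2, the mouse effect removed with limma 3.58.1, and genes with a mean of at least 3. An exact permutation test of the ratio of Apoa4 to its neighbours (scipy 1.17.1) is not reported, because the ratio was chosen with the decrease of Apoa4 known.

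Named genes are the 10 genes, their cluster neighbours, the genes called in each list (at most 3 per list and comparison), and the 5 most and least like Apoa4; other list genes given beside them for their role were added after their values were seen. Some list genes are counted but not reported here by name. Alternatives were no replicate block, DESeq2 1.42.0 size factors, DESeq2 with the block, ComBat-seq (sva 3.50.0) then DESeq2, no filter on low counts, no limit on the fold change, fits to the compared populations only, covariates for lobular position and other cells, and leaving out each mouse.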

Additional observations from a re-analysis of the deposited data

Results flagged for a closer look

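Of 30 groups of 4 libraries examined (the 10 genes in 3 populations), 2 held a value that stood apart by Dixon's test. Chance alone flags about 1 in 20 groups. Apoa1 in the 4n-whole library of mouse 3 was at 9278 CPM, above the other libraries at 7596 to 7766 CPM (gap over range 0.899). Apoc1 in the 2n-whole library of mouse 4 was at 3468 CPM, above the other libraries at 2649 to 2786 CPM (0.833).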

How the results depend on the processing

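Of the 720 recomputed fold changes (60 values under 12 alternatives), 623 kept their direction and their side of the threshold or moved by less than their SE, 54 moved by more, 22 lost and 21 gained significance, and 0 called values changed sign. In 4n-whole against 2n-whole, the number of the 10 genes called went from 1 to 4 with no limit on the fold change and to 0 with the lobular position covariate, and leaving out each mouse gave 1 to 3 (2 without mouse 1 and 3 without mouse 3). At the adjusted p alone, 4 genes passed, against 1 without the replicate block, 2 with the compared populations only, 2 with the other cells covariate, 0 with the lobular position covariate, and 1 to 5 with a mouse left out (1 without mouse 4 and 2 without mouse 2). In 4n-bottom and in 4n-top against 2n-whole, the count went from 1 to 0 both without the replicate block and with the lobular position covariate. In 4n-whole against 4n-bottom it went from 0 to 1 with DESeq2 size factors, DESeq2 with the replicate block, ComBat-seq then DESeq2 and no filter on low counts, and leaving out each mouse gave 0 to 1. The replicate block changed calls over all genes as well: without it, 40 genes were called in 4n-whole against 2n-whole, in place of 607. The genes of the 5 lists called in 4n-whole ranged from 0 to 21, with 8 in the report, 13 without mouse 3, 12 without mouse 1 and 3 without mouse 4. The log2 ratio of Apoa4 to its neighbours differed by -1.31 to -1.15 with a mouse left out and by -1.26 with the replicate block, as a description with no test. The cause of these changes was not tested. Apoa4 is the gene with the fewest counts (466 in 1 library).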
